A study of Mus musculus with 2 samples.

Results

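The genes described here encode the subunits of the proteasome, its activators and assembly chaperones, and the ubiquitin-conjugating enzymes (E2s), measured in the cerebellar granule cell layer of mice. They were chosen by name alone: every gene whose single annotated symbol began with Psma to Psmg and a digit, or with Ube2 and a letter. This gave 82 genes, 49 beginning with Psm and 33 beginning with Ube2, of 18194 named genes. They were measured by 184 of 34958 probe sets that carry 1 symbol. Of the 82, 78 were placed by their role in these pathways, and 4 were not placed by role. A further 5 probe sets matched the pattern only within an annotation of several symbols and were left out.

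The series holds 1 group of 2 samples, called sample 1 and sample 2. Both are laser-captured granule cell layer of intact C57BL/6J male mice aged 8 weeks, with no treatment or transgene in the labels. Purkinje cells, which the design text mentions as well, are not analysed here. Both titles name animal 1, so the SD between the samples may reflect technique alone and says nothing of variation among mice. The captured layer holds glia, vessels and interneurons besides granule neurons, and in such bulk samples fewer cells of a type and less RNA per cell cannot be told apart.

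The proteasome is the barrel-shaped protease that degrades proteins tagged with ubiquitin. Its core particle is a stack of rings of alpha and beta subunits, and 3 of the beta subunits, Psmb5, Psmb6 and Psmb7, carry the cutting sites. A regulatory particle of ATPases and non-ATPase subunits sits at the ends of the core, binds ubiquitin chains, removes them and unfolds the substrate. Ubiquitin reaches a substrate through an E1 activating enzyme, an E2 conjugating enzyme and an E3 ligase, and the E2 often sets the kind of chain that is built. In neurons this pathway takes part in synaptic turnover and in the clearance of damaged proteins.

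Signal intensities are given in array units. A gene is represented by its probe set with the highest mean log2 intensity over both samples. A gene is called above background when it exceeds, in both samples, the 95th percentile of genes typical of other organs, which was 15.6 in sample 1 and 32.4 in sample 2. The percentile rests on the brightest few of 71 such genes, 4 of which exceeded it in both samples, the keratin gene Krt10, the inhibin gene Inha, the trefoil factor gene Tff1 and the hormone precursor gene Pomc. The median of all 45101 probe sets was 7.9 in sample 1 and 8.3 in sample 2. The 8 granule neuron markers were all above background, as were 6 of 7 Purkinje cell, 7 of 8 astrocyte, 4 of 7 oligodendrocyte, 3 of 11 microglia and 3 of 9 endothelial markers. The ratio of the 3′ to the 5′ control probe set was 10.1 in sample 1 and 10.4 in sample 2 for Gapdh, and 29.0 and 37.9 for Actb, so probe sets far from the 3′ end may read low. With 2 samples of 1 group there is no test between groups. Intensities of different genes depend on their probes and are not set against each other as abundance.

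Of the 82 genes, 63 (76.8%) were above background in both samples, against 37.6% of all named genes. The share was 79.6% of the Psm genes (39 of 49) and 72.7% of the Ube2 genes (24 of 33). A further 9 genes passed in sample 1 alone, 0 in sample 2 alone and 10 in neither. Over all named genes 2144 passed in sample 1 alone and 230 in sample 2 alone. The threshold of sample 2 was the higher one, and these counts are not read as a difference between the samples. Of the 32 subunits that build the rings of the core, immune forms left aside, and the regulatory particle, 30 were above background. The 10 genes below threshold in both samples were Psma8, Psmb8, Psmb9, Psmb11, Psmg4, Ube2c, Ube2d2b, Ube2l6, Ube2o and Ube2u, and several of these are known from testis, thymus, immune or dividing cells.

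All alpha ring subunits other than the testis form were above background, 7 of 8 genes. The alpha ring forms the gate through which substrates enter. Psma6 had 3488 in sample 1 and 3353 in sample 2. Psma5 had 1201 in sample 1 and 1708 in sample 2. Psma2 had 985 in sample 1 and 1127 in sample 2, a mean of 1056 ± 100.2 (SD, n = 2). Sample 2 was the higher one for the latter pair, while Psma6 was nearly equal in both. Psma3 had 851 in sample 1 and 756 in sample 2. Psma1 had 200.3 in sample 1 and 179.5 in sample 2. Psma7 had 224 in sample 1 and 344 in sample 2. By its brightest probe set each of these 6 genes was within 2-fold between the samples. Psma1 had a second probe set above background with 19.3 in sample 1 and 76.2 in sample 2. The brightest probe set of Psma6 is of the _x_at kind, which can match other transcripts. Its brightest one of another kind had 492 in sample 1 and 693 in sample 2. Psma4, whose tail is central to the gate, stood apart from the brightest probe sets of these 6 genes. It had 60.4 in sample 1 and 216 in sample 2, a log2 difference (sample 1 minus sample 2) of -1.84. It was measured by 1 probe set, so this difference has no second measurement. Psma8, which replaces Psma7 in the testis, had 3.6 in sample 1 and 12.4 in sample 2 and was below threshold in both samples.

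The 7 constitutive beta subunits were all above background. Psmb5, which cuts after hydrophobic residues, had 481 in sample 1 and 479 in sample 2. Psmb6, which cuts after acidic residues, had 751 in sample 1 and 779.9 in sample 2. Psmb7, which cuts after basic residues, had 62.6 in sample 1 and 83.5 in sample 2. For Psmb5 and Psmb6 the samples were nearly equal, with log2 differences of 0.01 and -0.05, and for Psmb7 it was -0.42. The other 4 constitutive beta subunits have no cutting site. Psmb3 had 1985 in sample 1 and 2078 in sample 2. Psmb4 had 1546 in sample 1 and 1990.2 in sample 2. Psmb1 had 166 in sample 1 and 135 in sample 2. These 3 genes were within 2-fold between the samples, as was the fourth, Psmb2, with 59.7 in sample 1 and 37.8 in sample 2. Psmb2 was the member of this ring nearest to its threshold in sample 2.

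Of the immune and thymic beta subunits 0 of 4 were above background in both samples, against 37.6% of all named genes. With only 4 genes this difference is not read as a result. Psmb8, Psmb9 and Psmb10 replace Psmb5, Psmb6 and Psmb7 in the immunoproteasome, the form that interferon induces and that shapes peptides for antigen presentation. Psmb8 had 4.1 in sample 1 and 2.3 in sample 2 by its brighter probe set, and its other probe set had 2.7 and 1.1. Psmb9 had 6.9 in sample 1 and 7.1 in sample 2. Psmb11, the beta subunit of the thymic cortex, had 0.5 in sample 1 and 0.9 in sample 2. These 3 genes were below threshold in both samples. Psmb10 had 17 in sample 1 and 23 in sample 2, above the threshold of sample 1 and below that of sample 2. It is the gene that made this count 1 with the 90th percentile threshold, with an olfactory receptor background, with probe sets averaged, and in sample 1 alone. Of the 3 exchange pairs, each constitutive member was above background and each immune partner was not, in the same 2 samples.

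The genes of antigen presentation were mostly at background too, 2 of 12 above it, against 37.6% of all named genes. These 2 were the light chain gene B2m and the heavy chain gene H2-D1. B2m had 50.2 in sample 1 and 51.6 in sample 2, and H2-D1 had 20.4 in sample 1 and 44.2 in sample 2. With the 90th percentile threshold, with the olfactory receptor background or in sample 1 alone the count of antigen presentation genes was 5. Tap1 and Tap2, the peptide transporter genes that lie beside Psmb9 and Psmb8 in the gene order of the RefSeq table, had 3.6 in sample 1 and 0.6 in sample 2 and 7.6 in sample 1 and 14.4 in sample 2. Immune subunits are known from microglia, whose markers were present in part. The 11 microglia markers summed to 641 in sample 1 and 922 in sample 2, with Itgam at 0.5 and 0.3 and Aif1 at 0.3 and 4.2, and Csf1r at 251 and 411. The markers did not all follow the sum: Tyrobp had 56.3 and 25.9, Cx3cr1 29 and 7.9 and Trem2 10.4 and 0.8, all higher in sample 1. The part of microglia in the values of the immune subunits was not tested.

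The promoters of 2 exchange pairs are shown because the members of each pair lay on opposite sides of the background. The remaining pair, Psmb7 with Psmb10, did so as well but is not shown. Promoters of the regulatory ATPase Psmc2 and of the mitotic enzyme Ube2c, described further on, are given too. All those shown are RefSeq windows of 300 bases on build GRCm38.p6, read 5′ to 3′ on the gene's strand. The windows run from 250 bases before to 50 after the annotated start. Capitals mark matches, on either strand, to any of 7 motifs: TGACNNNGC (antioxidant response element core), CCGGAAG (ETS family), GCGCATGC (nuclear respiratory factor 1), CCAAT (the box named after it), TATAAA (the core of the TATA box), GAAANNGAA (interferon-stimulated response element core) and TTTGAA (cell cycle homology region). The motifs were chosen with the expression values known.
Psmb5 (chr14:54617946-54618245, minus strand): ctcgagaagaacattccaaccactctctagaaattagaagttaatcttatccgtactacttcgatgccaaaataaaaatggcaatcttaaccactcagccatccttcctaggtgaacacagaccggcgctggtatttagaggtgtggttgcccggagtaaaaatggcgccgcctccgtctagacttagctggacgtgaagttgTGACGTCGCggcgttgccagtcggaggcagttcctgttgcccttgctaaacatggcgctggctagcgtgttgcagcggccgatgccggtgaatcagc
Psmb8 (chr17:34197945-34198244, plus strand): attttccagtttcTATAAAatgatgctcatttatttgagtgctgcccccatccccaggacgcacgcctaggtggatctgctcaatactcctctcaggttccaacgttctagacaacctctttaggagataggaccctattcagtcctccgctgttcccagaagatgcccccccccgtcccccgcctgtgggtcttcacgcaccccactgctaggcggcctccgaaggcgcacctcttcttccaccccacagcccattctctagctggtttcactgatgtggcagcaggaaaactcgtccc
Psmb6 (chr11:70525107-70525406, plus strand): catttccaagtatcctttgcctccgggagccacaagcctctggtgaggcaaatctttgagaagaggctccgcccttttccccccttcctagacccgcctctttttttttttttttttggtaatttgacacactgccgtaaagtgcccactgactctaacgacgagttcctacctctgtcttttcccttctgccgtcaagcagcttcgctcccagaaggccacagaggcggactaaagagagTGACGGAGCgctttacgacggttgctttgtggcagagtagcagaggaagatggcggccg
Psmb9 (chr17:34187281-34187580, minus strand): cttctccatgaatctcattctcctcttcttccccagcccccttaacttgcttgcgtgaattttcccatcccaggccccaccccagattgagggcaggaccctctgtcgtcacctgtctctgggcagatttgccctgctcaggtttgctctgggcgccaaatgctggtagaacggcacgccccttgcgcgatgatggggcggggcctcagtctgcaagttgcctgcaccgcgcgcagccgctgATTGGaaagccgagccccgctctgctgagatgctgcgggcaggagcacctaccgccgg
Psmc2 (chr5:21785025-21785324, plus strand, 1 of its 2 windows): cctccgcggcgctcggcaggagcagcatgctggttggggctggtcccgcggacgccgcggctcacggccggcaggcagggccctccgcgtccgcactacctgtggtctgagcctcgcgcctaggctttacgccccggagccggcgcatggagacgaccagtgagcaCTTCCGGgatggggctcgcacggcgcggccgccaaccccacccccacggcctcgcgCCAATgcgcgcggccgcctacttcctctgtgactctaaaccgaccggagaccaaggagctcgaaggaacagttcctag
Ube2c (chr2:164769679-164769978, plus strand): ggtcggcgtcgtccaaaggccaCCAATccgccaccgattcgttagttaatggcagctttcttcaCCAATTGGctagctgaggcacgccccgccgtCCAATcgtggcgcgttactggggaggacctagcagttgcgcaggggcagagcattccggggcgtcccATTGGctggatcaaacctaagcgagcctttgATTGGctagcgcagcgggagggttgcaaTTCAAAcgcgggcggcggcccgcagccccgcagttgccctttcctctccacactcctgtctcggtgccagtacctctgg

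The Psmb5 and Psmb6 windows each held the antioxidant response element core, beginning 47 and 9 bases before the start. The windows of their immune partners did not hold it. Psmb8 held a TATA box letter match 237 bases before the start. Psmb9 held a CCAAT box on the opposite strand 8 bases before it. Of the pair not shown, neither Psmb7 nor Psmb10 was among the genes with a window that held the antioxidant response element core. The Psmc2 window held the ETS motif 84 bases and a CCAAT box 28 bases before the start. The Ube2c window held 6 CCAAT box matches, 2 of them overlapping, and a cell cycle homology region match 29 bases before the start.

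Of the 82 genes 68 had a window in the table, and they had 80 windows, since 10 genes had more than 1. The antioxidant response element core was in 6 of 44 Psm windows (13.6%) and 7 of 36 Ube2 windows (19.4%), against 12.4% of all 32851 windows. Over other genes it was in 13.9% of 7244 windows of genes above background and 13.8% of 10683 windows of other measured genes. These last shares were nearly equal. The ETS motif was in 17 Psm windows (38.6%) and 8 Ube2 windows (22.2%), against 8.86% of all windows. It was in 18.2% of the 7244 windows of other genes above background and 9.41% of the 10683 windows of other measured genes. Among the genes whose windows held it were the regulatory particle genes Psmc1, Psmc2, Psmc6, Psmd2, Psmd4, Psmd6, Psmd11, Psmd12 and Psmd13. The nuclear respiratory factor 1 motif was in 3 Psm windows and 1 Ube2 window (2.71% of all), those of Psma2, Psmc5, Psmg1 and Ube2k. The interferon-stimulated core was in 15.9% of Psm and 8.33% of Ube2 windows (8.56% of all). The genes with such a window were Psmb3, Psmb4, Psmc2, Psmd4, Psmd9, Psme1, Psmg4, Ube2d3 and Ube2u. The windows of Psmb8 and Psmb9 did not hold it. The TATA box was in 9.09% of Psm and 5.56% of Ube2 windows (13.6% of all). The CCAAT box was in 36.4% and 19.4% (37.4% of all), and the cell cycle homology region in 9.09% and 11.1% (17.9% of all). A match of letters is a description of the window and not evidence of a bound factor.

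**Figure D1:**
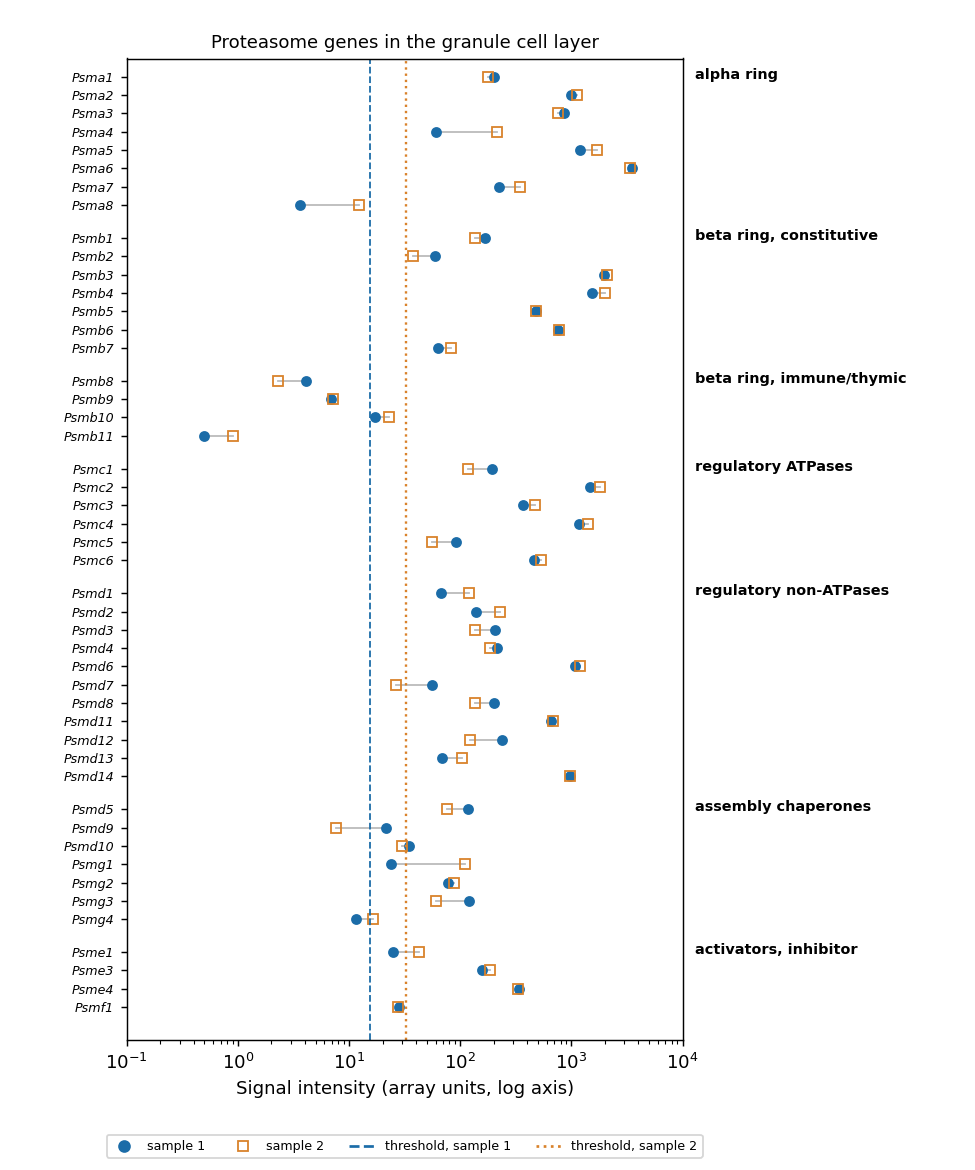
Signal intensity (log axis) of the 47 Psm genes placed by role, with sample 1 as filled circles and sample 2 as open squares joined by a line. The dashed and dotted lines are the thresholds of sample 1 (15.6) and sample 2 (32.4). The 7 constitutive beta subunits lie right of both lines, while the 4 immune and thymic forms lie left of the sample 2 line.

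All 6 ATPases of the regulatory particle were above background. They form the ring that unfolds substrates and feeds them into the core. Psmc2 had 1466 in sample 1 and 1795 in sample 2. Psmc4 had 1165 in sample 1 and 1406 in sample 2. Psmc3 had 367 in sample 1 and 468 in sample 2. By these brightest probe sets all 3 were somewhat higher in sample 2. Psmc6 had 463 in sample 1 and 530.3 in sample 2, while its second probe set above background went the other way with 465 and 366. Psmc1 had 192 in sample 1 and 117 in sample 2. Psmc5 had 91.9 in sample 1 and 55.3 in sample 2. The differences between the samples went both ways, from -0.35 for Psmc3 to 0.73 for Psmc5 on the log2 scale. None of the 6 differed by 2-fold between the samples by its brightest probe set. Among their less bright probe sets above background, those of 2 genes did: Psmc2 had a second probe set at 197 and 487, and Psmc4 one at 56.1 and 133. The brightest probe set of Psmc2 is of the _x_at kind, which can match other transcripts, and without such probe sets its log2 difference was -1.31.

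Of the 11 non-ATPase subunits of the regulatory particle 10 were above background. The deubiquitinase Psmd14, which cuts the chain off the substrate, had 974 in sample 1 and 966 in sample 2. Its partner Psmd7, with which it forms a dimer, had 55.4 in sample 1 and 26.2 in sample 2 and passed in sample 1 alone. Both other probe sets of Psmd7 were between 0.5 and 3.7. With the 90th percentile threshold, with the olfactory receptor background, and without probe sets of the _x_at and _s_at kind Psmd7 was above background as well. The scaffold genes Psmd1 and Psmd2 had 67.3 in sample 1 and 119 in sample 2 and 139 in sample 1 and 227 in sample 2. The ubiquitin receptor gene Psmd4 had 214 in sample 1 and 186 in sample 2. The helical subunits of the lid, which hold the particle together, were all above background. Psmd6 had 1075 in sample 1 and 1196 in sample 2. Psmd11 had 657 in sample 1 and 686 in sample 2. Both were nearly equal in the samples. Psmd3 had 207 in sample 1 and 135 in sample 2. Psmd8 had 199.5 in sample 1 and 134 in sample 2. Psmd13 had 68.7 in sample 1 and 103 in sample 2. The first pair of these was higher in sample 1 and Psmd13 in sample 2, each within 2-fold. Psmd12, higher in sample 1 with 239 in sample 1 and 122 in sample 2, had a log2 difference of 0.98, just short of 2-fold.

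Assembly chaperones, which bring subunits together and leave the finished particle, were above background in 4 of 7 cases. The core is started by the pairs Psmg1 with Psmg2 and Psmg3 with Psmg4. Psmg1 had 23.8 in sample 1 and 111 in sample 2, a log2 difference of -2.22, while its partner Psmg2 had 78.3 in sample 1 and 88.4 in sample 2. Psmg3 had 120.0 in sample 1 and 60.3 in sample 2, while its partner Psmg4 had 11.5 in sample 1 and 16.4 in sample 2 and was below threshold in both samples. The chaperones of the ATPase ring also differed from one another. Psmd5 had 116 in sample 1 and 76.2 in sample 2 and was above background. Psmd10, also known as gankyrin, had 34.9 in sample 1 and 29.8 in sample 2, and Psmd9 had 21.4 in sample 1 and 7.6 in sample 2, so that both passed in sample 1 alone. At the 99th percentile threshold 1 of the 7 chaperones was above background, Psmd5.

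Of 4 measured genes for activators and the inhibitor 3 were above background. Psme4, the large nuclear activator, had 338 in sample 1 and 333 in sample 2. Psme3, the nuclear activator that opens the core without ATP, had 159 in sample 1 and 185 in sample 2. Psme1, a subunit of the interferon-inducible activator, had 24.8 in sample 1 and 42.6 in sample 2, above both thresholds but within 2-fold of them. The inhibitor gene Psmf1 had 28.2 in sample 1 and 27.6 in sample 2 and passed in sample 1 alone. With probe sets averaged the count was 1, Psme1. Of the 6 probe sets of Psme4 2 were above background, and of the 3 of Psme3 1 was.

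Of the E2s, the families of broad use were above background apart from a testis form. The Ube2d enzymes work with many E3 ligases. Ube2d3 had 1247 in sample 1 and 1445 in sample 2. Ube2d2a had 736 in sample 1 and 805 in sample 2. Ube2d1 had 62.4 in sample 1 and 98.8 in sample 2. All 3 were above background and within 2-fold. Ube2d2b, known from testis, had 4.7 in sample 1 and 0.6 in sample 2 and was below threshold. The related Ube2e enzymes carry a longer amino-terminal end. Ube2e3 had 1388 in sample 1 and 1501 in sample 2. Ube2e1 had 594 in sample 1 and 644 in sample 2. Ube2e2 had 177 in sample 1 and 196 in sample 2. The 3 Ube2e genes had log2 differences from -0.15 to -0.11. By their brightest probe sets all 6 genes of both families above background were higher in sample 2. Among less bright probe sets above background, those of Ube2d3 and Ube2d2a went both ways. Over all named genes above background the median log2 difference was -0.10, and the shared direction is not read as a result about these families. The coding sequences of the Ube2d genes are close copies, and some of their probe sets may read more than 1 of them.

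The E2s that build K48-linked chains, the signal for the proteasome, or that work at the endoplasmic reticulum were all above background, 6 of 6. Ube2k, which extends K48-linked chains, had 304 in sample 1 and 406 in sample 2. Ube2g1 had 612 in sample 1 and 498 in sample 2. Ube2r2, which works with cullin ligases, had 154 in sample 1 and 233 in sample 2. By these brightest probe sets Ube2g1 was higher in sample 1 and the other two in sample 2. The second probe set of Ube2g1 went the other way with 19.8 and 44.1, and with probe sets averaged its log2 difference was -0.43. The membrane-anchored Ube2j1 had 263 in sample 1 and 238 in sample 2. Its relative Ube2j2 had 102 in sample 1 and 43.8 in sample 2, a log2 difference of 1.22. Ube2g2, which takes part in the degradation of misfolded proteins of the endoplasmic reticulum, had 32.1 in sample 1 and 75 in sample 2, a log2 difference of -1.22. Ube2j2 and Ube2g2 were thus more than 2-fold apart, in opposite directions, while the other 4 were within 2-fold by their brightest probe sets. The second probe set of Ube2j1, below background, had 6.7 and 29.8.

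K63-linked chains, which serve signalling and DNA repair rather than degradation, are built by Ube2n with a partner that lacks the catalytic cysteine. Ube2n had 261 in sample 1 and 216 in sample 2, while its second probe set above background went the other way with 24.8 and 44.6. Its partners Ube2v1 and Ube2v2 had 498 in sample 1 and 381 in sample 2 and 153 in sample 1 and 279 in sample 2. All 3 were above background with the threshold used here and in each alternative run for this count.

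Of the 6 E2s of DNA repair and of mitosis 3 were above background. Ube2a and Ube2b, which act in post-replication repair and histone ubiquitination, had 176 in sample 1 and 182 in sample 2 and 657 in sample 1 and 756 in sample 2. Ube2w, which attaches ubiquitin to the amino terminus of proteins, had 99.1 in sample 1 and 120.0 in sample 2. Its second probe set above background went the other way with 68.8 and 32.9. The less bright probe sets of Ube2b above background went both ways, with 103 and 67.8 and with 20.8 and 50.4. Those 3 genes were above background. Ube2c, which starts chains for the anaphase-promoting complex, had 0.4 in sample 1 and 8.1 in sample 2, below threshold in both samples. Ube2s, which extends these chains, had 20.8 in sample 1 and 18 in sample 2. Ube2t, the E2 of the Fanconi anaemia pathway, had 22.6 in sample 1 and 22.9 in sample 2. Ube2s and Ube2t passed in sample 1 alone, and with the 90th percentile threshold or the olfactory receptor background the count for this group was 5 of 6. Of 11 cell division genes measured beside these E2s 1 was above background, against 37.6% of all named genes. It was the replication clamp gene Pcna with 108 in sample 1 and 54.2 in sample 2. The summed intensity of the 11 genes was 166 in sample 1 and 128 in sample 2, with Cdk1 at 0.3 and 0.8. The cell division count was 4 with the olfactory receptor background and 0 at the 99th percentile threshold.

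Among E2s of ubiquitin-like proteins, Ube2f, which passes NEDD8 to cullins, was above background with 292 in sample 1 and 156 in sample 2. Ube2l6, the interferon-induced E2 of ISG15, had 6.5 in sample 1 and 0.2 in sample 2 and was below threshold in both samples.

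Of the remaining 7 E2s 4 were above background. Ube2h had 382 in sample 1 and 375 in sample 2 by an _x_at probe set, and its second brightest probe set had 77.6 and 182. Ube2ql1 had 53 in sample 1 and 82.3 in sample 2. Ube2h was thus equal by one probe set and more than 2-fold apart by another. Ube2q1 had 47.3 in sample 1 and 202 in sample 2, a log2 difference of -2.10, and its second probe set had 31.8 and 38.7. Ube2z, which takes its ubiquitin from the E1 enzyme Uba6, had 23.3 in sample 1 and 73.7 in sample 2, a log2 difference of -1.66. Ube2q2 had 33.6 in sample 1 and 29.8 in sample 2 and passed in sample 1 alone. Ube2o, an E2 that also acts as an E3, had 11.8 in sample 1 and 15.9 in sample 2, and Ube2u had 4.4 in sample 1 and 5.9 in sample 2, both below threshold in each sample. At the 99th percentile threshold only Ube2h of these genes was above background.

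The 4 genes not placed by role are no subunits or E2s of the groups above. Psmc3ip, a factor of meiotic recombination, had 85.1 in sample 1 and 49 in sample 2. Psme3ip1 had 134 in sample 1 and 80.1 in sample 2. The pseudogene Ube2d-ps had 23.3 in sample 1 and 47.7 in sample 2. The remaining one, Ube2cbp, had 21.5 in sample 1 and 26.5 in sample 2. Of these, Ube2cbp was above background in sample 1 alone and the others in both. The probe set that carries Psmc3ip above background is of the _s_at kind, which can match several transcripts, and its other probe set was at 13.5 and 6.9. A pseudogene's probe sets may also read its parent genes.

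**Figure D2:**
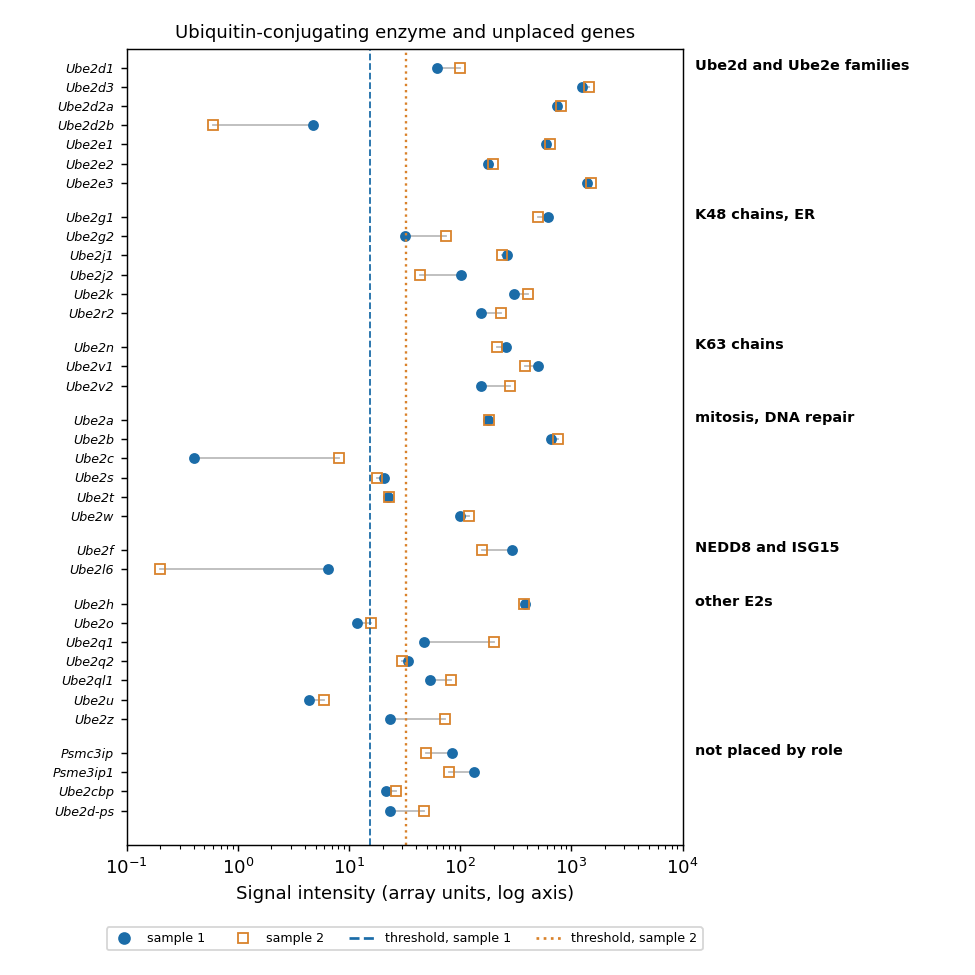
Signal intensity (log axis) of the E2 genes by role and of the 4 genes not placed by role, with sample 1 as filled circles and sample 2 as open squares joined by a line. The dashed and dotted lines are the thresholds of sample 1 (15.6) and sample 2 (32.4). Ube2c, Ube2l6, Ube2d2b and Ube2u lie left of both lines, and the 6 genes of K48-linked chains and the endoplasmic reticulum lie right of their sample's line.

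The partners of these enzymes were largely above background, against 37.6% of all named genes. The count was 4 of 5 measured E1 genes, 12 of 12 proteasome partners and regulators, 16 of 17 E3 ligase and cullin genes and 4 of 4 ubiquitin-like protein genes. The NEDD8 activating pair Nae1 and Uba3 had 1278 in sample 1 and 1206 in sample 2 and 782 in sample 1 and 867 in sample 2. Uba6, the E1 of Ube2z, had 59.6 in sample 1 and 44.2 in sample 2. The E1 gene of the ISG15 pathway, Uba7, had 17.3 in sample 1 and 10.8 in sample 2 and did not pass in sample 2. Sem1, a small subunit of the lid, had 2263 in sample 1 and 2257 in sample 2. The proteasome-bound deubiquitinase genes Usp14 and Uchl5 had 154 in sample 1 and 178 in sample 2 and 135 in sample 1 and 156 in sample 2, and the assembly factor gene Pomp had 144 in sample 1 and 164 in sample 2. Nfe2l1, the transcription factor that raises proteasome genes when the proteasome is inhibited, had 64.8 in sample 1 and 68.2 in sample 2. The segregase gene Vcp had 186 in sample 1 and 81.9 in sample 2, and the E3 gene Ube3a, imprinted in neurons, had 159.7 in sample 1 and 305 in sample 2. The E3 list member below background was Rbx1 with 0.2 in sample 1 and 17.2 in sample 2. With probe sets averaged the partners and regulators count was 7 of 12, and at the 99th percentile threshold the E1 count was 2 and the ubiquitin-like protein count 2.

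The samples differed little over the members as a group. Over the 63 genes above background the median log2 difference was -0.13 with an SD of 0.71, and over the 6841 named genes above background it was -0.10 with an SD of 0.61. Sample 1 was the higher one for 25 of the 63 and sample 2 for 38. By role the median lay between -0.23 for the ATPases and 0.27 for the K63-chain E2s for most roles with 3 or more genes above background. The exceptions were the last group of E2s at -1.15, over Ube2q1, Ube2z, Ube2ql1 and Ube2h, and the genes not placed by role at 0.74. The 32 subunits of the rings and the regulatory particle had a median of -0.06 over the 30 above background. Of these 30, 13 were higher in sample 1 and 17 in sample 2. The counts of genes higher in each sample were not made over all named genes, so they are no result about the members.

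A total of 72 genes passed the threshold of either sample. Sample 1 exceeded sample 2 by 2-fold or more for 3 of them, and the reverse held for 6. The share over all 9215 such named genes was 11.4% in the direction of sample 1 and 8.35% in that of sample 2, and the members' counts are no result about the members. Those higher in sample 1 were Psmd7 (2.11-fold), Psmd9 (2.82-fold) and Ube2j2 (2.33-fold). Those higher in sample 2 were Psmg1 (4.65-fold), Ube2q1 (4.28-fold), Psma4 (3.58-fold), Ube2z (3.16-fold), Ube2g2 (2.34-fold) and Ube2d-ps (2.05-fold). Psmd12 and Psmg3 were just short of 2-fold and passed it under median scaling and quantile normalization, which raised the count toward sample 1 to 5. With 16 added to both intensities it was 0, and with no background filter it was 5. At the 99th percentile threshold it was 1.

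Most of these 9 genes were dim. Of the 45 members with a geometric mean intensity of 100 or more 1 was at least 2-fold apart, Psma4, against 4.85% of 3852 such named genes. Of the 27 dimmer members above background in at least 1 sample 8 were 2-fold apart, against 30.5% of 5363 such named genes. These shares are near those of all genes and are no result about the members.

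**Figure D3:**
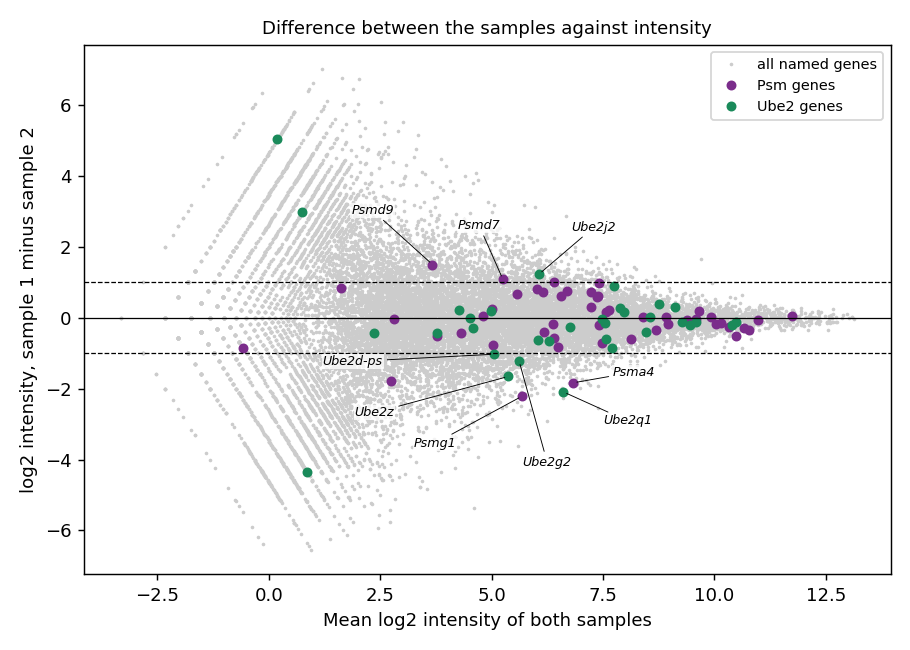
Log2 intensity of sample 1 minus sample 2 against the mean log2 intensity, with all 18194 named genes in grey, Psm genes in purple and Ube2 genes in green. Dashed lines mark 2-fold. The named points are the 9 members at least 2-fold apart and above background in at least 1 sample, of which only Psma4 has a geometric mean of 100 or more.

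Many members had probe sets on both sides of the background. Of the 82 members 51 had 2 or more probe sets, and in 34 of these (66.7%) some were above and some below background, against 45.0% of all 9012 named genes with 2 or more. In 10 all were above and in 7 none was. Genes with no probe set above background stay in both shares and cannot be split in this way. More of the members than of all named genes were above background (76.8% against 37.6%), so the higher share is not read as a result about the members. Psmd11 had 8 probe sets, 3 of them above background, from 0.3 and 0.7 for the dimmest to 657 and 686 for the brightest. Ube2d3 had 7, of which 5 were above background, and Ube2f had 6, of which 2 were. Of the 184 probe sets 99 were above background. Direction was not stable between probe sets either. In 28 members 2 or more probe sets were above background, and in 16 of these all pointed to the same sample. This count was not made over all named genes, so it is no result about the members. The 5 probe sets of Ube2d3 above background were split, 3 higher in sample 1 and 2 in sample 2. For Ube2q1 both probe sets above background were higher in sample 2, and for Ube2z likewise.

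**Figure D4:**
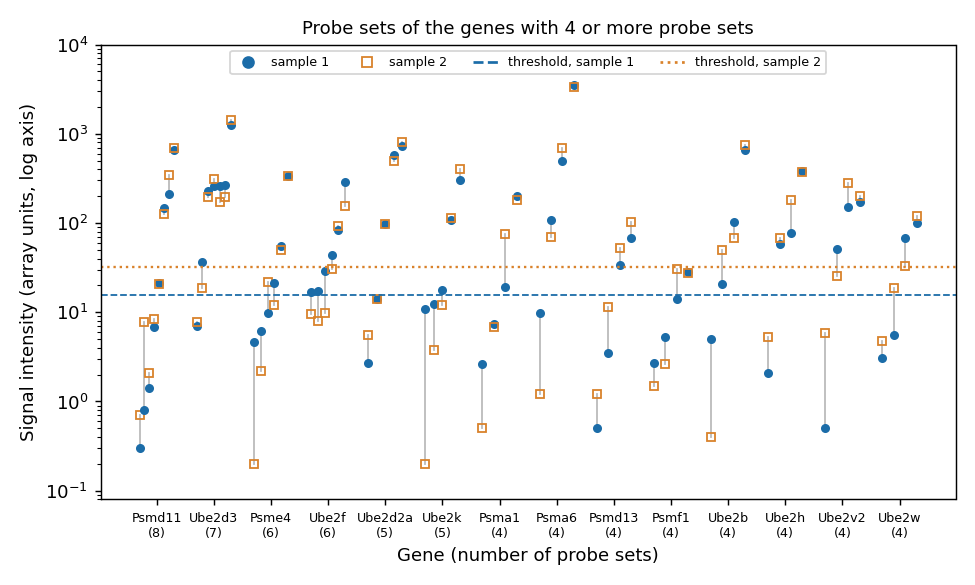
Signal intensity (log axis) of every probe set of the 14 members with 4 or more probe sets, with sample 1 as filled circles and sample 2 as open squares joined by a line. Dashed and dotted lines are the thresholds of sample 1 (15.6) and sample 2 (32.4). Most genes have probe sets on both sides of the lines, as Psmd11 with 3 of 8 above them.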

How the data were processed

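Granule cell layer was laser-captured from 12 μm sections, and RNA (about 1 ng) went through 2 cycles of amplification with biotin labelling before hybridization to Affymetrix arrays, per the labels' protocols. The deposited values are linear signal intensities, 1 for each probe set of an array, made with GCOS per the submitters' processing notes. The version and scaling used were not given in the sources used here. No detection calls were used.

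Intensities were used as deposited. Values of 0 (2 in sample 1, 1 in sample 2) were set to 0.1 before log2. Gene symbols came from the platform annotation. All 82 members matched RefSeq by gene ID. Background genes were 80 known from other organs, of which 71 were measured. Counts, folds and medians were computed in Python 3.11.15 with pandas 2.3.3. Only the 2-fold call was tested on simulated data, and only for brighter genes. Counts above background and medians were not tested in this way. The number of arrays limits the precision. Members and lists were chosen with earlier results of these data known. Every measured member and any listed gene could be named. Alternatives were other thresholds (90th and 99th percentile), an olfactory receptor background, quantile normalization, median scaling, other probe set summaries, a pseudocount of 16, no filter, and each sample alone.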

Additional observations from a re-analysis of the deposited data

How the results depend on the processing

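The count of members above background was 63 and ran from 45 (99th percentile threshold) to 73 (olfactory receptor background, 39 genes, thresholds 8.3 and 9.6), and 40 genes were above background in every alternative run for it. Quantile normalization and median scaling left the same 63 genes above background (0 gained, 0 lost). Both keep the order of values within a sample and had their thresholds recomputed, so this outcome was all but fixed in advance. Averaging all probe sets gave 56, without _x_at and _s_at probe sets 67. Thresholds were recomputed in each alternative. The median log2 difference ran from -0.29 (mean of all probe sets) to -0.06 (median scaling and the 99th percentile threshold), within the SD of 0.71. Members at least 2-fold higher in sample 1, 3 in the main setting, were 1 at the 99th percentile threshold, 5 under quantile normalization, median scaling or no filter, and 0 with log2(value + 16). By role, the immune and thymic count of 0 became 1 with the 90th percentile, the olfactory receptor background and the mean of all probe sets, and 0 to 1 with 1 sample alone. The mitosis and repair count of 3 became 5 with the 90th percentile and the olfactory receptor background, and 3 to 5 with 1 sample alone. At the 99th percentile the assembly chaperones and the other E2s each had 1, and averaging all probe sets left 1 of the activators and inhibitor. Of the lists, the 99th percentile left 2 E1 genes, 2 ubiquitin-like protein genes, 0 antigen presentation genes and 0 cell division genes. The 90th percentile gave 5 antigen presentation genes. The olfactory receptor background gave 5 antigen presentation, 7 oligodendrocyte, 6 endothelial and 4 cell division genes. The mean of all probe sets gave 7 proteasome partners and regulators and 4 astrocyte genes, and leaving out _x_at and _s_at probe sets 1 antigen presentation gene. With 1 sample alone the range was 3 to 5 for antigen presentation (2 with both), 4 to 7 for oligodendrocyte, 3 to 5 for microglia and 3 to 5 for endothelial genes, the higher value in sample 1. The cause of these changes was not tested. Low signal over background limits the dim members: values under about 100 often moved 2-fold between the samples. No paired analysis was possible because the series has 1 group. The differences of single members were an alternative added after seeing the data. Of these, 525 stayed within the SD and 12 moved beyond it, most with the mean of all probe sets. Examples were Psma3 to -1.64, Psmc2 to -1.70 and Psmg3 to -0.48. The 525 include alternatives that changed only the threshold or filter, which cannot change the difference of a single member. The SD is also wide: Psmd11 counted as within it, though it went from -0.06 to -0.73 without _x_at and _s_at probe sets.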
